A study of Mus musculus with 13 samples.

Results

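The genes described here encode 37 factors that build ribosomes in the nucleolus: subunits of RNA polymerase I and its activator Ubtf, abundant nucleolar proteins, the proteins of the small nucleolar particles that modify ribosomal RNA, and processing factors of the small and the large ribosomal subunit. They were taken by symbol, as every probe set of a fixed list of gene names that the platform annotation assigns to 1 gene. The rule uses no measured value, but the list was drawn up with earlier results of these data known. All 37 were found among the 18193 genes with such a probe set, and all 37 passed the filter on dim signals among 14007 genes in all. A gene is described by its brightest probe set unless another is named.

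Total RNA of mouse embryonic stem cells (ESC) and of day 7 embryoid bodies, the cell aggregates that ESC form when they differentiate, was hybridised to 13 Affymetrix Mouse430_2 arrays. The cells carry a green fluorescent reporter of Stella, the germ cell and ESC protein made by Dppa3, and were sorted by it. There were 5 groups. ESC gave 3 arrays of the Stella-negative fraction, 2 of the Stella-positive fraction and 2 of unsorted cells, and day 7 embryoid bodies gave 2 arrays of negative cells, which the submitters call non-germ cells, and 4 of positive cells, which they call primordial germ cells made in vitro. The unsorted ESC have no sort, and the labels name culture and sort as the only differences between the other 4 groups. The deposited array description of positive ESC array 2 names a BAC reporter, which no other array's does, so these 2 positive ESC arrays may not carry the same construct. The labels give no strain, line or clone and do not tie replicates to cultures or sorts, so that each p-value reflects only how these arrays spread, possibly for technical reasons. The deposited MAS5 signal intensity was scaled to a common trimmed mean of 105.2, and differences are on the scale of log2(signal + 10.5), with limma standard errors (SE). "Called" means a limma adjusted p under 0.05, adjusted by Benjamini-Hochberg over 30023 probe sets.

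Unscaled trimmed means were 78.1 to 230.0 on ESC arrays and 8.48 to 82.9 on day 7 arrays, with the dimmest being positive day 7 array 4. The 3'/5' signal ratio of actin, which rises as labelled RNA gets shorter, was 1.12 to 1.23 in ESC and 5.48 and 5.85 in negative day 7 cells. On positive day 7 arrays 1 to 4 it was 2.04, 2.17, 4.89 and 5.16. Dppa3 followed the sort, at 807, 728, 1078 and 1138 in positive against 74.6 and 101 in negative day 7 cells. Of 8 further germ cell markers, a list added after seeing the data, 7 were tested and 3 were called higher in positive day 7 cells: Dazl (1.66 ± 0.39), Tfap2c and Ddx4 (1.21 ± 0.34). Markers of other tissues also moved with the sort. The summed signal of 12 yolk sac and endoderm markers was 23078 and 24996 on the negative day 7 arrays, 8576 and 8793 on positive arrays 1 and 2, and 863 and 1118 on positive arrays 3 and 4. The 12 pluripotent stem cell markers summed to 13715 and 14710 on the negative and to 27720 to 29479 on the positive arrays. Of these lists, 11 of 12 endoderm, 9 of 12 mesoderm, cardiac and endothelial, 6 of 12 fibroblast and 3 of 7 blood markers were called lower in positive day 7 cells and 0 higher. Of the pluripotent markers, 9 of 12 were called higher, in a list that includes Dppa3, the gene whose reporter was sorted. In RNA of sorted populations, fewer cells of a type and less RNA per cell cannot be told apart.

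Ribosome production starts with RNA polymerase I, which transcribes the ribosomal RNA precursor from repeated genes in the nucleolus. Box C/D particles direct ribose methylation of that precursor and box H/ACA particles turn selected uridines into pseudouridine. Assembly factors then fold, cut and export the small and large subunits, and rapidly dividing cells such as ESC run this pathway at a high rate.

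At day 7, in the comparison of Stella-positive with Stella-negative cells (the day 7 sort), ribosome biogenesis genes of every role were called higher in positive cells, led by Nhp2, Pes1 and Ebna1bp2. Of the 37 genes, 19 were called higher and 0 lower, and 18 were not called, while 10.2% of all genes tested were called higher and 9.07% lower. The median log2 difference of the 37 genes was 0.73, from 0.02 to 1.52, against -0.09 over all genes tested. Among the 5993 genes at least as bright as the dimmest of the 37 (Rrp12, mean signal 134.6), 20.2% were called higher and the median difference was 0.14. In 31 of the 37 genes the 4 positive arrays all lay above both negative arrays. This held for 19.0% of all genes and for 2053 of the 5993 bright ones. Beside these counts stand the marker values above: cell types and RNA quality differ between the same arrays. With arrays centred on their median instead of scaled, the median of all probe sets moved from -0.12 to 0.12, the share of calls among all probe sets that were higher from 52.1% to 77.7%, and the median of the 37 genes to 0.97, with 21 called higher and 0 lower.

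**Figure D1:**
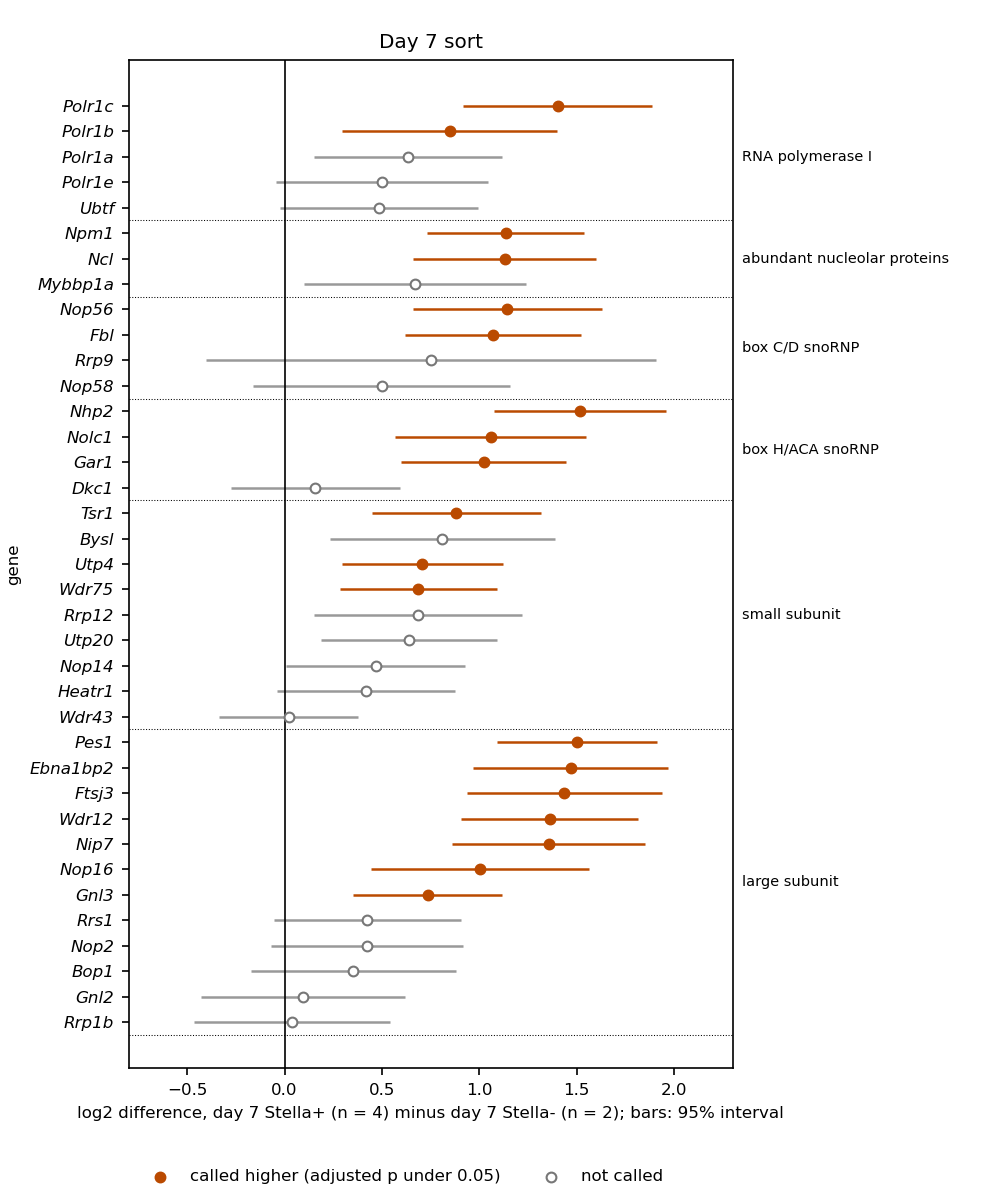
Log2 difference between Stella-positive (n = 4) and Stella-negative (n = 2) day 7 cells for each of the 37 genes, grouped by role, with 95% intervals from limma. Filled points are the 19 genes called higher. All 37 points lie above 0, from Wdr43 at 0.02 to Nhp2 at 1.52.

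Genes of this pathway are known targets of Myc transcription factors, which bind the E-box CACGTG. RefSeq promoter windows of the GRCm38.p6 build were searched for it, and it reads the same on both strands. The windows run from 250 bases before to 50 bases after an annotated start. Of the 37 genes 31 had a window. The motif was in a window of 7 of the 31 genes (22.6%) and of 2187 of all 27025 genes (8.09%). By window it was in 17.9% of 39 against 7.15% of all. Among windows whose GC content lay within 10 points of the median of the 39 windows it was in 8.56%. That median was 58.0%, against 52.7% over all windows. The motif itself contains a CG, and the median count of CG per window was 21.0 in the 39 windows against 7.0 over all. Windows were not matched for that count, so its part in these shares was not tested. The 7 stretches around it are shown, 5′ to 3′ on the strand of the gene with the motif in capitals, because these genes hold the only matches:
Pes1: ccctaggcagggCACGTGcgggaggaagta
Tsr1: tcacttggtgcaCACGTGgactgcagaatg
Utp4: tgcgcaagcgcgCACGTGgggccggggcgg
Mybbp1a: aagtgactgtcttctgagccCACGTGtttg
Nop2: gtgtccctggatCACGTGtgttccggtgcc
Utp20: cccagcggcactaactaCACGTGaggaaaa
Wdr43: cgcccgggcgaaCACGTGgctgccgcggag
They lie at chr11:3963965-3963994 (plus strand), chr11:74898092-74898121 (plus), chr8:106893643-106893672 (plus), chr11:72441347-72441376 (plus), chr6:125131811-125131840 (plus), chr10:88826765-88826794 (minus) and chr17:71616220-71616249 (plus). In Nop2 the motif begins 60 bases before the annotated start, and in the other 6 it begins 2 to 40 bases after it.

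A match is a description of the letters and not a binding site. Of the 7 genes with the motif 3 were called higher in the day 7 sort, Pes1, Tsr1 and Utp4, with a median difference of 0.67 over the 7. Of the 24 matched genes without it 14 were called, with a median of 0.83. The gene with the smallest difference of all 37, Wdr43, holds the motif, and Nhp2, with the largest, does not.

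RNA polymerase I genes split into 2 that were called higher and 3 that were not. Polr1c, a subunit shared with RNA polymerase III, read 564 and 687 in negative and 1379, 1407, 1862 and 2108 in positive day 7 cells. Every positive array lay far above both negative ones, and the log2 difference was 1.40 ± 0.23 (SE), or 2.64-fold (adjusted p = 0.000837). Polr1b, which with Polr1a forms the catalytic core, rose by 0.85 ± 0.26 (adjusted p = 0.0353). Polr1a itself read 119 and 106 in negative and 182, 166, 207 and 167 in positive cells. Its arrays did not overlap, but its difference of 0.63 ± 0.23 did not pass the test (adjusted p = 0.0679). Dimmer probe sets of Polr1a, 1456066_a_at and 1460215_at, differed by -0.19 ± 0.31 and 0.09 ± 0.32 and were not called. Polr1e, an accessory subunit, differed by 0.50 ± 0.26 and was not called. Ubtf, the factor that opens and activates ribosomal DNA, had the smallest difference of this group: it read 493 and 313 in negative and 547, 526, 618 and 529 in positive cells, a log2 difference of 0.48 ± 0.24 (adjusted p = 0.180), with negative array 1 close to the positive arrays. A dim probe set of Ubtf, 1460304_a_at (mean signal 69.9), was called higher, by 1.90 ± 0.35 (adjusted p = 0.00215).

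Of the abundant nucleolar proteins, nucleophosmin and nucleolin rose. Npm1, which encodes the nucleophosmin that chaperones ribosomal particles, was the brightest of the 37 genes, at 4976 and 5382 in negative and 10122, 10417, 11955 and 13304 in positive day 7 cells. The positive arrays lay far above the negative ones, and the log2 difference was 1.14 ± 0.19 (2.20-fold, adjusted p = 0.00102). Ncl, which encodes nucleolin, an RNA-binding protein of early processing, read 2760.0 and 3333 in negative and 6369.6, 7235, 6083 and 6967 in positive cells. The positive arrays were close to each other and all above the negative ones, with a log2 difference of 1.13 ± 0.22 (adjusted p = 0.00301). Mybbp1a, a nucleolar Myb-binding protein, read 1148 and 981 in negative and 1302, 1403, 2186 and 2061 in positive cells. Its arrays did not overlap, but the positive arrays were spread and the difference of 0.67 ± 0.27 did not pass (adjusted p = 0.101).

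The box C/D proteins divided in the same way. Fbl, the methyltransferase fibrillarin, read 575 and 595 in negative and 1532, 1563, 963 and 1019 in positive day 7 cells. Positive arrays 1 and 2 were higher than arrays 3 and 4, and all 4 were above the negative arrays (log2 difference 1.07 ± 0.21, adjusted p = 0.00320). Nop56, a scaffold of the particle, read 494 and 538 in negative and 1101, 1160.1, 1001 and 1378 in positive cells and rose by 1.14 ± 0.23 (adjusted p = 0.00329). Its partner Nop58 read 551 and 551 in negative and 1195, 1119.9, 669 and 417 in positive cells. Positive array 4 lay below both negative arrays, and the difference of 0.50 ± 0.31 was not called (adjusted p = 0.293). Rrp9, specific to the particle that cuts the precursor for the small subunit, read 22.1 and 56.8 in negative and 176, 143, 30.6 and 22.4 in positive cells. Its positive arrays 3 and 4 fell within the range of the negative arrays, and its difference of 0.75 ± 0.55 had the widest error of the 37 (adjusted p = 0.370).

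Of the 4 genes of the box H/ACA particles 3 rose. Nhp2, a core RNA-binding protein, had the largest difference of all 37 genes. It read 749 and 907 in negative and 2290.1, 2307, 2691 and 2242 in positive day 7 cells, with no positive array near a negative one, and the log2 difference was 1.52 ± 0.21 (2.86-fold, adjusted p = 0.000230). The core protein Gar1 rose by 1.02 ± 0.20 (adjusted p = 0.00292) and Nolc1, a chaperone of these particles, by 1.06 ± 0.23 (adjusted p = 0.00576). Dkc1, the pseudouridine synthase dyskerin, read 631 and 611 in negative and 743, 798, 767 and 510.2 in positive cells. Positive array 4 was the lowest of the 6, and the difference was 0.16 ± 0.21 (95% interval -0.28 to 0.59, adjusted p = 0.637). A further probe set of Dkc1, 1438015_at, read 293 and 331 in negative and 816, 691, 918 and 695 in positive cells and was called higher, with a difference of 1.29 ± 0.27 (adjusted p = 0.00428).

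Small subunit factors had the smallest share of calls, with 3 of 9 called higher and a median difference of 0.69. Tsr1, a late assembly factor of the small subunit with an E-box in its window, read 888 and 979 in negative and 1639, 1597, 1912 and 1776 in positive day 7 cells. The positive arrays were all well above the negative ones, by 0.88 ± 0.20 on the log2 scale (adjusted p = 0.00814). Utp4 and Wdr75, of the complex that binds the nascent precursor, rose by 0.71 ± 0.20 (adjusted p = 0.0214) and by 0.69 ± 0.19 (adjusted p = 0.0221). Wdr43, of the same complex and with an E-box too, read 765 and 771 in negative and 737, 832, 725 and 829 in positive cells. The groups overlapped fully and the difference was 0.02 ± 0.17, with a 95% interval of -0.33 to 0.38. Differences of the other 5 were positive and not called: 0.81 for Bysl, 0.69 for Rrp12, 0.64 for Utp20, 0.47 for Nop14 and 0.42 for Heatr1. Of these, Bysl and Rrp12 act in late maturation and export, and Utp20 and Nop14 in early processing, and Heatr1 belongs to the complex of Utp4, Wdr75 and Wdr43. The lowest adjusted p among these 5 was 0.0514, for Utp20.

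Large subunit factors gave 7 of the 19 calls, from 12 genes. Pes1, Bop1 and Wdr12 encode the proteins of 1 complex that processes the precursor of the large subunit. Pes1, whose E-box begins 2 bases after the annotated start, read 115 and 104 in negative and 359, 369, 269 and 328 in positive day 7 cells, far apart relative to the spread within either group, and rose by 1.5 ± 0.19 (2.83-fold, adjusted p = 0.000154). Wdr12 read 126 and 96.7 in negative and 258, 246, 352 and 363 in positive cells and rose by 1.36 ± 0.22 (adjusted p = 0.000660). Bop1 read 206 and 206 in negative and 252, 258, 329 and 233 in positive cells. Its arrays did not overlap, but the difference of 0.35 ± 0.25 (95% interval -0.17 to 0.88) was not called, and differences between the 3 partners were not tested.

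Nip7, a factor of late large subunit processing, read 227 and 241 in negative and 697, 661, 573 and 539 in positive day 7 cells and rose by 1.36 ± 0.23 (adjusted p = 0.00124). Ebna1bp2, the mammalian form of yeast Ebp2, read 155 and 209 in negative and 562, 628, 436 and 463 in positive cells and rose by 1.47 ± 0.24 (adjusted p = 0.000783). In both genes the positive and negative arrays were far apart. Ftsj3, an RNA methyltransferase, rose by 1.44 ± 0.24 (adjusted p = 0.000881), Nop16 by 1.0 ± 0.27 (adjusted p = 0.0170) and Gnl3, the GTP-binding nucleostemin, by 0.73 ± 0.18 (adjusted p = 0.0114). The 4 remaining genes were not called. Rrs1, which helps to bring in ribosomal proteins, differed by 0.42 ± 0.23 and Nop2, a methyltransferase of large subunit ribosomal RNA, by 0.42 ± 0.23. Gnl2, a GTP-binding export factor, read 359 and 445 in negative and 332, 379, 404 and 653 in positive cells, and Rrp1b read 417 and 448 in negative and 552, 509, 342 and 405 in positive cells. In both the groups overlapped, with differences of 0.09 ± 0.25 and 0.04 ± 0.24. A dimmer probe set of Rrp1b, 1452119_at, read 155 and 117 in negative and 280, 269, 282 and 206 in positive cells. It was called higher, by 0.88 ± 0.25 (adjusted p = 0.0252), while 1452118_at of the same gene was not called (0.34 ± 0.22).

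The calls of the day 7 sort rest on few arrays. Without negative array 1 they fell from 19 to 8, and without negative array 2 to 13, with the lone negative array assumed to vary like the other groups. Calls over all probe sets fell as well, from 8.54% higher to 2.79% and to 4.18%. The 3'/5' ratio of Gapdh was 3.03 and 3.18 on negative and 1.23 to 2.09 on positive day 7 arrays. With it as a covariate, 6.96% of all probe sets and 7 of the 37 genes were called higher, 6 of the 7 among the 19. Nop58 and Rrp9 were called lower. The ratio changes with the sort, so ratio and sort cannot be fully told apart in that fit. Within the hybridisation run that held negative array 2 and positive arrays 1 to 3, 13 were called, against 4.44% of all probe sets, and the median difference was 0.82. That fit has 1 negative day 7 array, so its spread comes from the positive arrays and from the ESC arrays of the other run. Polr1c and Nhp2 were called in all 22 alternative settings, and Npm1 in all 21 in which it was measured.

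The 4 positive day 7 arrays differed from each other in actin ratio and in endoderm signal, and the 37 genes could be read in each pair of them. Against the mean of negative ESC, the median log2 difference of the 37 genes was -0.22, -0.22, -0.19 and -0.17 on positive arrays 1 to 4, and -0.93 and -0.98 on the negative day 7 arrays. Positive arrays 3 and 4 both lay above both negative arrays in 31 of the 37 genes and in 27.7% of all genes. Arrays 1 and 2 did so in 35 of the 37 and in 29.2% of all genes. The Gapdh ratio was 1.32 and 1.23 on arrays 1 and 2, 1.65 and 2.09 on arrays 3 and 4, and 3.03 and 3.18 on the negative arrays. The part of RNA quality and of cell types in these values was not tested. When positive arrays 1 and 2 were left out, an alternative chosen after seeing the data, 18 genes were called higher, 16 of them among the 19, and the median difference was 0.75, while 8.88% of all probe sets were called higher and 9.28% lower.

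Single genes did differ between the pairs of positive arrays. Arrays 3 and 4 were both below arrays 1 and 2 in 13 genes, both above in 11 and in neither order in 13. The widest spread was that of Rrp9, 7.85-fold between the highest and lowest array, followed by Nop58 at 2.87-fold. Without arrays 1 and 2 the differences of Nop58, Rrp9 and Rrp1b were -0.06, -0.35 and -0.21. Polr1c, Npm1, Mybbp1a and Wdr12 were higher on arrays 3 and 4 than on arrays 1 and 2.

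**Figure D2:**
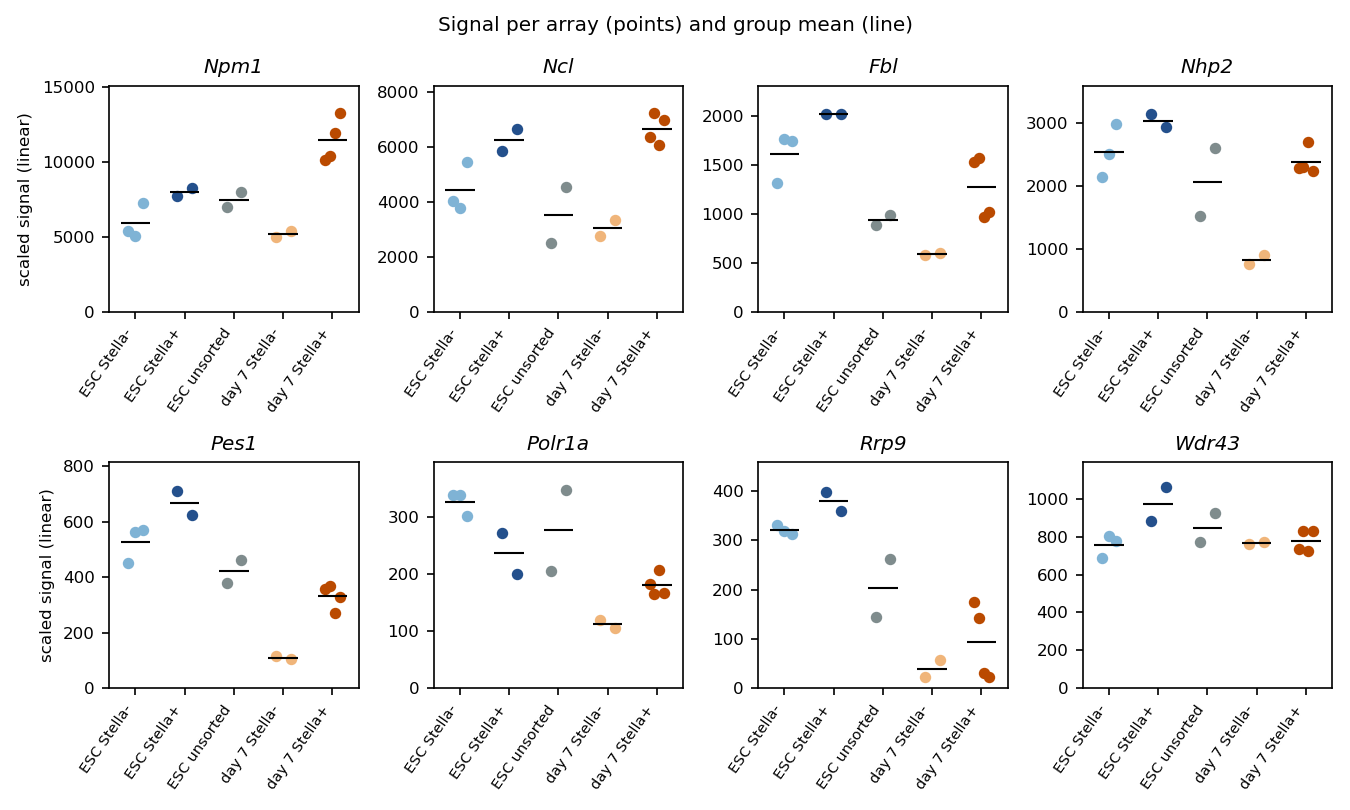
Scaled signal on a linear axis from 0 for 8 of the 37 genes on each of the 13 arrays, with points for arrays and lines for group means. In Npm1, Ncl, Nhp2, Pes1 and Fbl all 4 positive day 7 arrays lie above both negative ones, Rrp9 splits the positive arrays 2 against 2, and in Wdr43 the day 7 groups overlap.

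In ESC the sort gave 0 calls among the 37 genes by limma, where 0.00714% of all genes (1 of 14007) was called in either direction. The median log2 difference was 0.23, with 33 genes higher and 4 lower in sign, against a median of -0.04 over all genes. Within the run that held the 3 negative arrays and only 1 positive array, 0 were called too. At an unadjusted p under 0.05 there were 4 of the 37 genes, Gnl3 (0.59 ± 0.19), Ncl (0.51 ± 0.24), Gar1 (0.48 ± 0.21) and Npm1 (0.46 ± 0.20), and 522 of all genes. Ncl read 4044, 3772 and 5431 in negative and 5838 and 6651 in positive ESC, with positive array 1 not far above negative array 3. Npm1 read 5421, 5047 and 7252 in negative and 7763 and 8248 in positive ESC, again with negative array 3 nearest to the positive arrays. Polr1a had the lowest difference, -0.46 ± 0.24, at 339, 338 and 302 in negative and 273 and 200.4 in positive ESC.

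Whether the day 7 sort difference exceeded the ESC sort difference was tested by the interaction of sort and culture. The interaction was positive in 35 of the 37 genes, with a median of 0.66, but 0 genes were called by limma. It was positive in 6746 of all 14007 genes tested, with a median of -0.03. Among the 5993 genes at least as bright as the dimmest of the 37 it was positive in 3553, with a median of 0.14. Over all genes 0.807% were called in either direction. The lowest adjusted p was 0.0688, with interactions of 1.25 ± 0.30 for Nhp2, 1.29 ± 0.31 for Wdr12 and 1.16 ± 0.28 for Pes1, and 16 of the 37 genes had an unadjusted p under 0.05, as had 2209 of all genes. By probe set, 3 of 72 were called, all higher, 1 each of Npm1, Nhp2 and Mybbp1a, where 161 of all 30023 were called higher and 64 lower. Differences in the ESC sort and in the day 7 sort of the same genes are therefore not shown to be unequal, except for those 3 probe sets.

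Compared with negative ESC, most of the genes were lower in Stella-negative day 7 cells. The comparison shares its negative day 7 arrays with the day 7 sort. Of the 37 genes, 23 were called lower and 1 higher, while 16.0% of all genes tested were called lower and 18.9% higher. The median log2 difference was -0.98, against 0.18 over all genes. Among genes at least as bright as the dimmest of the 37, 29.1% were called lower and the median was -0.17. In 33 of the 37 genes the negative day 7 cells had the lowest mean of the 5 groups, as in 27.0% of all genes and 41.1% of the bright ones. With median centring, 16.8% instead of 55.1% of the calls among all probe sets were higher and 30 of the 37 genes were called lower, and with quantile normalization 42.8% and 22. When the Gapdh ratio was a covariate 1 gene was called lower, and lower calls over all 30023 probe sets fell from 4514 to 907. That ratio was 0.80 to 0.87 on negative ESC arrays and 3.03 and 3.18 on negative day 7 arrays. It changes with the comparison, so ratio and culture cannot be fully told apart in that fit.

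The largest fall with low spread was that of Ftsj3, which read 281, 286 and 392 in negative ESC and 45.6 and 45.7 in negative day 7 cells, a log2 difference of -2.54 ± 0.25 (5.82-fold lower, adjusted p = 3.06e-06). Pes1 fell from 450.3, 562 and 569 to 115 and 104 (-2.16 ± 0.21, adjusted p = 2.22e-06). Nolc1 fell from 885, 1241 and 1128 to 239.5 and 262 (-2.05 ± 0.25, adjusted p = 1.6e-05). In all 3 the groups were far apart relative to their spread. Nip7, Nop16 and Ebna1bp2 changed by -1.83, -1.99 and -1.95, and Rrp9, with a wider error, by -2.82 ± 0.58. All 4 box C/D genes were called lower, among them Fbl, which fell from 1311, 1765 and 1743 to 575 and 595 (-1.43 ± 0.22, adjusted p = 0.000180).

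Of the 5 RNA polymerase I genes 3 were called lower. Polr1a fell from 339, 338 and 302 in negative ESC to 119 and 106 in negative day 7 cells (-1.45 ± 0.24, adjusted p = 0.000274), and Polr1b and Polr1e were called lower, with differences of -1.74 ± 0.27 and -1.01 ± 0.27. Polr1c (-0.57 ± 0.24, adjusted p = 0.0790) and Ubtf (-0.18 ± 0.25) were not called. A dimmer probe set of each was called lower: 1417041_at of Polr1c (mean signal 498, -1.415 ± 0.214) and 1460304_a_at of Ubtf (mean signal 69.9, -2.78 ± 0.37). Of the abundant nucleolar proteins 0 of 3 were called on the brightest probe set. Other probe sets of these genes were called lower: 1432416_a_at of Npm1 (-1.25 ± 0.19) and 1423430_at of Mybbp1a (-3.35 ± 0.28). So were 1415773_at (-2.14 ± 0.31) and 1415772_at (-0.78 ± 0.29) of Ncl. The dim probe set 1442404_at of Ncl differed by 1.26 ± 0.50, without a call. On its brightest probe set Npm1 read 5421, 5047 and 7252 in negative ESC and 4976 and 5382 in negative day 7 cells, and the groups overlapped (-0.17 ± 0.20, adjusted p = 0.527). The 1 gene called higher was Gnl2, which rose from 237, 218 and 243 to 359 and 445 (0.76 ± 0.26, adjusted p = 0.0348). Its call was lost when any of the 3 negative ESC or 2 negative day 7 arrays was left out.

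In Stella-positive cells fewer of the genes were called against ESC. The difference between the fractions is the interaction above, in which 0 genes were called. Of the 37 genes, 12 were called lower and 1 higher at day 7, while 6.80% of all genes tested were called lower and 9.02% higher. The median log2 difference was -0.35, against 0.13 over all genes. With median centring, 12.1% instead of 53.0% of the calls among all probe sets were higher, and 17 of the 37 genes were called lower. Large subunit factors gave 6 of the 12: Bop1, Pes1, Nop16, Nip7, Ftsj3 and Ebna1bp2. Bop1 fell from 849 and 608 in positive ESC to 252, 258, 329 and 233 in positive day 7 cells (-1.40 ± 0.25, adjusted p = 0.00170), with all day 7 arrays far below both ESC arrays. Nolc1 changed by -1.26 ± 0.23, Dkc1 by -0.90 ± 0.21, Fbl by -0.70 ± 0.21, Rrp9 by -2.30 ± 0.55, Polr1b by -0.92 ± 0.26 and Heatr1 by -0.73 ± 0.22. Pes1 read 709 and 625 in positive ESC and 359, 369, 269 and 328 in positive day 7 cells, so it was called lower than in ESC in both fractions and higher in positive than in negative day 7 cells.

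Tsr1 was the 1 gene called higher, from 1207 and 879 in positive ESC to 1639, 1597, 1912 and 1776 in positive day 7 cells (0.74 ± 0.20, adjusted p = 0.0217). The call was lost without positive ESC array 2 and without positive day 7 arrays 3 and 4. A dimmer probe set of Tsr1, 1433502_s_at (mean signal 327), had the opposite sign, at -0.23 ± 0.19, and was not called (adjusted p = 0.448). In negative day 7 cells against negative ESC that probe set was called lower (-1.03 ± 0.20), where the brightest one differed by 0.02 ± 0.22. Npm1 read 7763 and 8248 in positive ESC and 10122, 10417, 11955 and 13304 in positive day 7 cells. Every positive day 7 array was above both ESC arrays, and its difference of 0.51 ± 0.19 did not pass (adjusted p = 0.0809). In 10 of the 37 genes the positive day 7 cells had the highest mean of the 5 groups, as in 18.0% of all genes, and in 0 the lowest. The 12 lower calls fell to 0 when the Gapdh ratio was a covariate, and lower calls over all 30023 probe sets fell from 2228 to 332. That ratio was 0.85 and 0.86 on positive ESC arrays and 1.23 to 2.09 on positive day 7 arrays. Ratio and culture cannot be fully told apart in that fit either. Without either positive ESC array, which leaves 1 in that group, fewer were called among the 37 genes and among all probe sets. All day 7 arrays were of a chip lot that no ESC array shared and were hybridised in other runs, so culture, lot and run cannot be told apart.

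**Figure D3:**
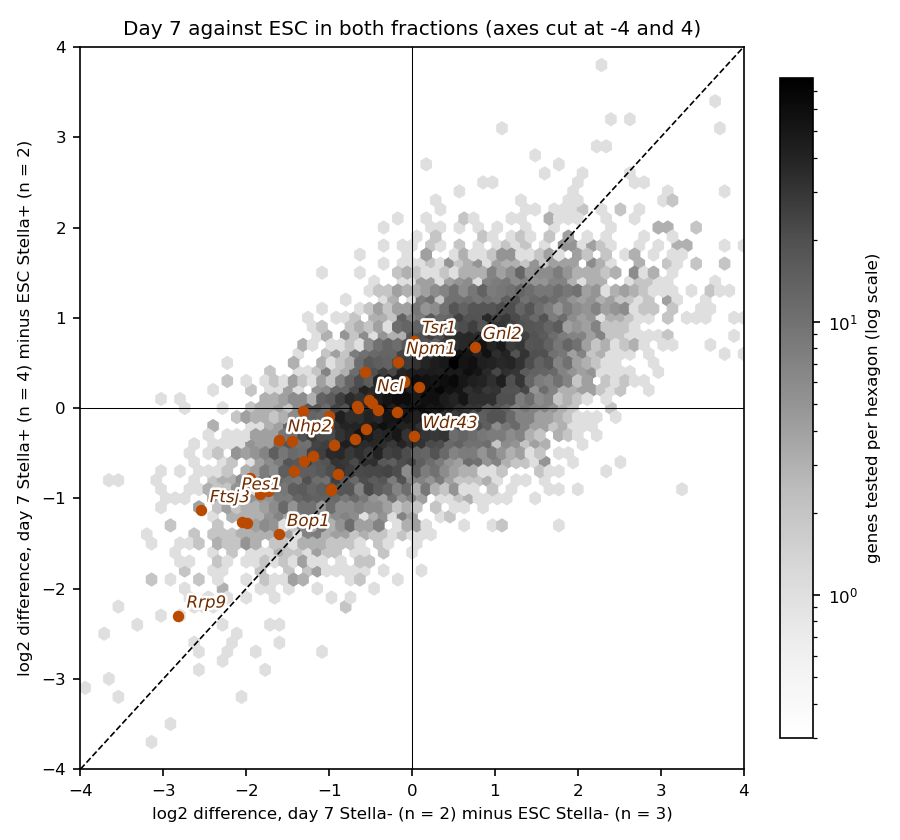
Log2 difference of day 7 cells from ESC in the Stella-negative fraction (horizontal axis) and in the Stella-positive fraction (vertical axis), which share no arrays. Orange points are the 37 genes, grey hexagons all 14007 genes tested (37 genes lie beyond the axes), and the dashed line marks equal differences. Of the 37 genes, 35 lie above the line, as do 6746 of all 14007.

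**Figure D4:**
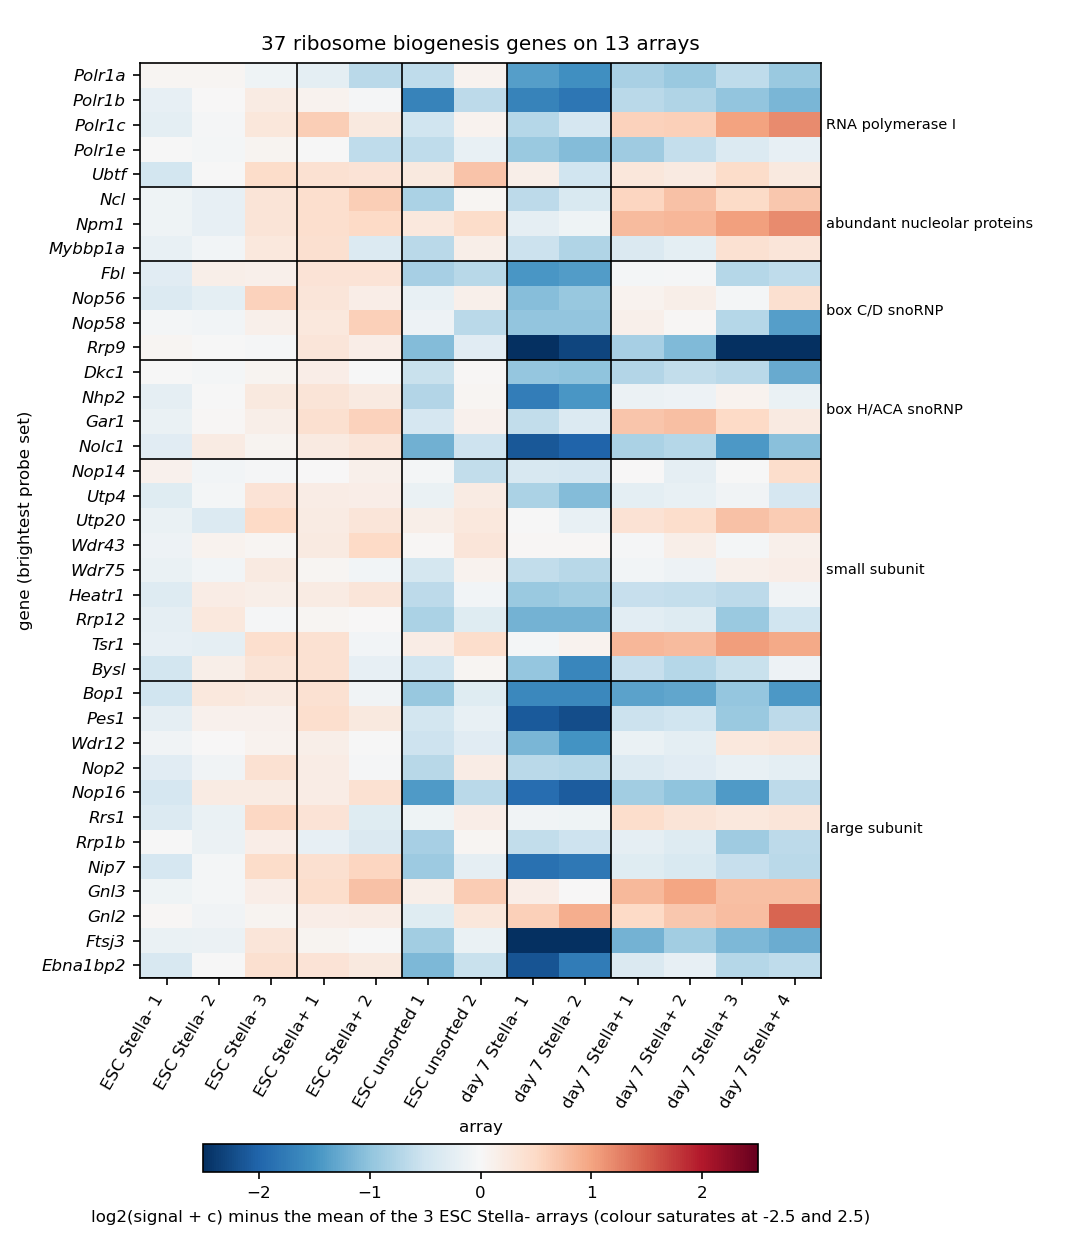
Log2(signal + c) of the 37 genes on the 13 arrays, minus the mean of the 3 Stella-negative ESC arrays, with genes in rows by role and arrays in columns by group. The 2 Stella-negative day 7 columns are the bluest, with medians of -0.93 and -0.98, and Rrp9 and Ftsj3 are lowest there.

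Unsorted ESC were compared with both sorted ESC fractions. The unsorted arrays were hybridised in a run of their own, so run and sorting cannot be told apart. Of the 37 genes, 6 were called lower and 0 higher, while 3.02% of all genes tested were called lower and 3.24% higher (with median centring, 26.6% instead of 53.3% of the calls among all probe sets were higher, and 5 of the 37 genes were called lower). The 6 were Polr1b (-1.18 ± 0.25), Nop16 (-1.19 ± 0.26), Nolc1 (-1.0 ± 0.23), Ebna1bp2 (-0.99 ± 0.23), Fbl (-0.93 ± 0.21) and Nip7 (-0.80 ± 0.23). Nop16 read 135 and 231 in unsorted ESC, below all 5 sorted arrays, at 278, 436 and 437 in negative and 431 and 495 in positive ESC. The 2 unsorted arrays were unlike: the median of the 37 genes against negative ESC was -0.56 on array 1 and 0.05 on array 2. Without array 1, which leaves 1 unsorted array, the calls among the 37 genes were lost, and calls over all probe sets fell as well. Fibroblast and feeder markers were highest on unsorted array 1, with a summed signal of 19795 there and 7270 on array 2, against 3824 to 8748 on sorted ESC arrays. The part of that signal in the 6 calls was not tested.

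Other genes of the pathway were called in the day 7 sort in 1 direction too. In that comparison 10.2% of all genes tested were called higher and 9.07% lower. Of genes at least as bright as the dimmest of the 37, 20.2% were called higher. Of 38 tested small subunit factors outside the 37 genes, 11 were called higher and 0 lower (median 0.48), from Ddx49, a putative RNA helicase (2.70 ± 0.26), to Rrp36 (0.77 ± 0.20). Of 48 large subunit factors, 23 were called higher and 0 lower (median 0.67), from Rrp15 (2.08 ± 0.24) to the helicase gene Ddx51 (0.72 ± 0.23). Ddx49 read 10.4 and 24.4 in negative and 159.7, 135, 207 and 167 in positive day 7 cells, and Rrp15 75.9 and 77.5 in negative and 415, 418, 409 and 233 in positive cells. In both genes every positive array was above both negative ones by more than the spread within either group.

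RNA polymerase I genes outside the 37, which include subunits shared between polymerases, gave 4 calls of 13, from Polr2e (2.12 ± 0.18) to Polr2h (0.76 ± 0.20). The RNA exosome, which trims the ends of ribosomal RNA precursors and degrades faulty ones, gave 11 calls of 15 with a median of 1.08, from Exosc5 (1.99 ± 0.23) to Exosc2 (0.67 ± 0.20). RNA polymerase III, which makes the smallest ribosomal RNA and transfer RNA, gave 2 calls of 13 (median 0.65), Polr3b, its subunit next in size to the largest (0.92 ± 0.23) and Maf1, a repressor of that polymerase (0.69 ± 0.20). Of 9 genes that host small nucleolar RNAs in their introns, 2 were called, Snhg3 (2.31 ± 0.39) and Snhg12 (0.81 ± 0.20). In these 4 lists 0 genes were called lower. The calls of 2 of 13 RNA polymerase III genes and 2 of 9 host genes were near the 20.2% of the bright genes. In negative day 7 cells against negative ESC the 6 lists gave 19 of 38 small subunit, 28 of 48 large subunit, 7 of 13 RNA polymerase I, 12 of 15 exosome, 8 of 13 RNA polymerase III and 4 of 9 host genes called lower, where 16.0% of all genes and 29.1% of the bright ones were. In the same comparison 1 small subunit, 2 large subunit and 1 host gene were called higher. The median of each list was above the -0.09 of all genes, as was that of the 12 pluripotent markers (1.11), while the 12 endoderm markers had a median of -2.46.

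Of 11 tested genes of the network of Myc, the factors of the E-box above, 4 were called higher and 0 lower in the day 7 sort: Mga (1.73 ± 0.22), Mlx (1.42 ± 0.23), Max (1.2 ± 0.38) and Mycn (1.09 ± 0.26). Over all genes tested 10.2% were called higher there and 9.07% lower. Mlx, Max, Mxd1 and Myc were named after their values were seen. Mycn read 435 and 440.4 in negative and 1250.4, 1195, 862 and 622 in positive day 7 cells, with no overlap. Myc itself read 60 and 39.4 in negative and 53.1, 66.6, 44.0 and 99.7 in positive cells, with overlapping arrays and a difference of 0.31 ± 0.36 that was not called. Against ESC, 6 genes of the network were called lower and 2 higher in negative day 7 cells, and 3 lower and 1 higher in positive ones. Over all genes tested 16.0% were called lower and 18.9% higher in negative cells, and 6.80% lower and 9.02% higher in positive ones. The higher calls of the network were near those shares. Myc was called lower at day 7 in the negative fraction (-1.93 ± 0.38), as was Mycn in both fractions (-1.69 ± 0.28 in negative and -0.83 ± 0.26 in positive cells), while Mxd1, a repressor of Myc targets, was called higher in the positive fraction (1.65 ± 0.46).

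Most of the genes have more than 1 probe set, and these did not all agree. The 37 genes have 76 probe sets, of which 72 were tested. In the day 7 sort 34 were called higher and 1 lower, while 8.54% of all 30023 probe sets were called higher and 7.87% lower. Of the 26 genes with at least 2 tested probe sets, 16 had the same sign in all of them and 7 had all of them called higher. At least 1 probe set was called higher in 23 of the 37 genes. Of the 59 probe sets with a mean signal of at least 100, 33 were called higher and 0 lower, and of the 13 dimmer ones 1 and 1.

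The 1 probe set called lower belongs to Ncl. Probe set 1442404_at, with a mean signal of 66.7, read 161 and 185 in negative and 59.1, 24.6, 6.27 and 56.3 in positive day 7 cells (-2.17 ± 0.48, adjusted p = 0.00593). The other 4 probe sets of Ncl, all brighter, were called higher, by 0.94 to 1.77. Dim probe sets of Ebna1bp2 (1437512_x_at, -0.83 ± 0.40), Wdr12 (1417270_at, -0.56 ± 0.37) and Nip7 (1453324_at, -0.41 ± 0.28) had negative differences that were not called. Those of Ebna1bp2 and Nip7 were called higher in negative day 7 cells than in negative ESC, by 1.34 ± 0.42 and 0.85 ± 0.30, while the bright probe sets of both genes were called lower. In unsorted ESC the dim probe set of Ebna1bp2 was called higher, by 1.53 ± 0.39, and that of Nop16, 1451414_at, differed by 0.55 ± 0.49 without a call.

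The size of a difference from ESC also varied between bright probe sets of 1 gene. In negative day 7 cells against negative ESC, the median range between probe sets with a mean signal of at least 100 was 0.84 on the log2 scale over 16 genes, and between all tested probe sets 1.07 over 26 genes. Mybbp1a changed by -0.65 ± 0.29 on its brightest probe set and by -3.35 ± 0.28 on the other, which read 1037, 1377 and 1222 in negative ESC and 88.9 and 132 in negative day 7 cells. Npm1 changed by -0.17 ± 0.20 on its brightest probe set and by -1.25 ± 0.19 on the other. Ncl changed by -0.52 ± 0.24 on its brightest probe set and by -2.14 ± 0.31 on 1415773_at, its probe set with the largest fall. In the day 7 sort both probe sets of Npm1 were called higher, by 1.14 ± 0.19 and 1.67 ± 0.18, and of Mybbp1a only the dimmer, by 1.76 ± 0.27. The distance of the probes from the transcript ends is not analysed here, and its part in these ranges was not tested.

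**Figure D5:**
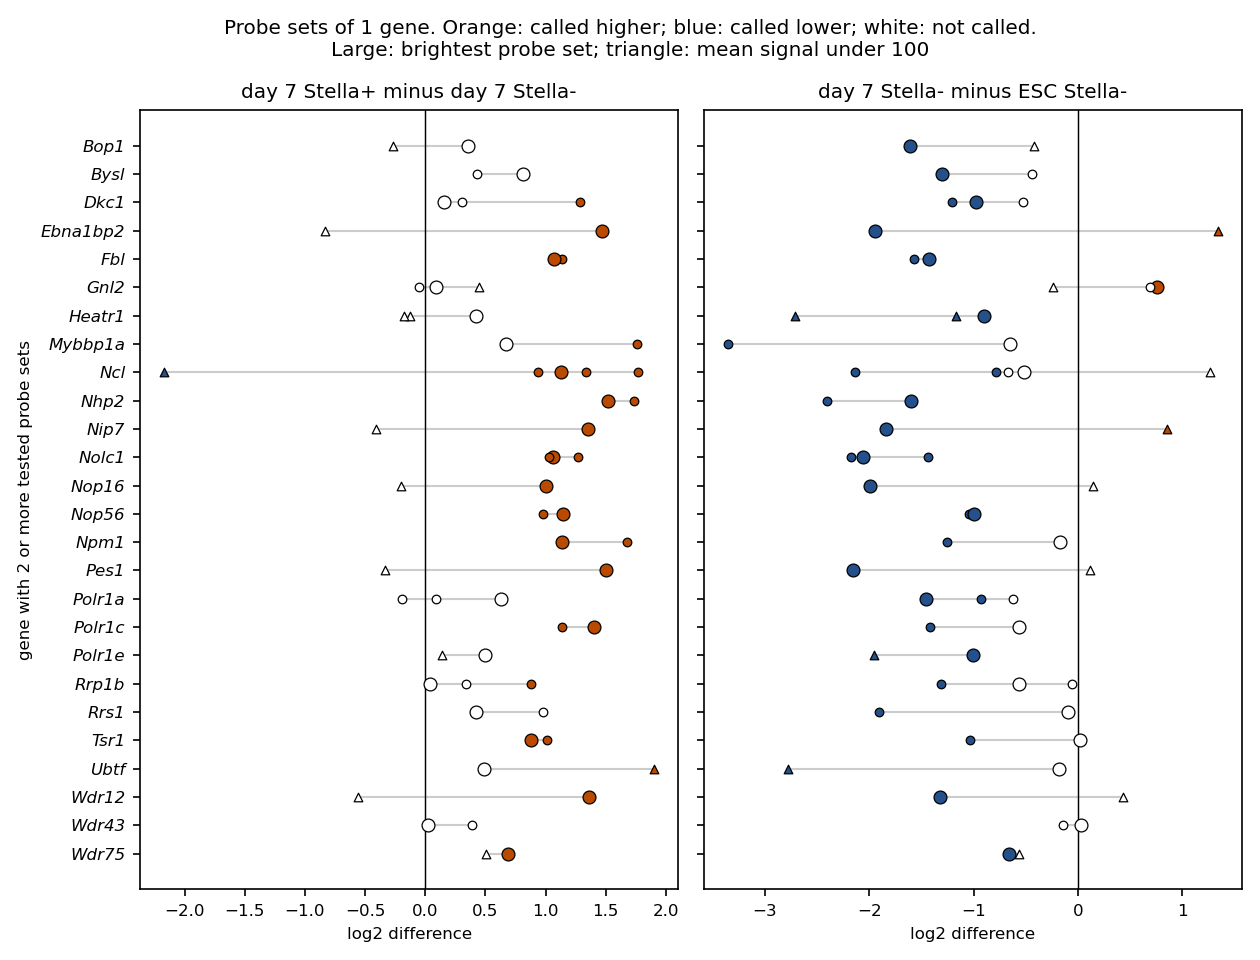
Log2 difference of each tested probe set for the 26 genes with at least 2, in the day 7 sort (left) and in negative day 7 cells against negative ESC (right). Large markers are the brightest probe set of a gene and triangles have a mean signal under 100. Ncl spans the widest range in both panels, 3.94 and 3.40.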

How the data were processed

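RNA of 13 samples was hybridised to 1 array each, and the deposited signal intensity of 45101 probe sets was made by the authors with MAS5, per the submitters' processing notes; its version is not given in the sources used here. Each array was scaled to the mean of the trimmed means (2% off each end), and log2(signal + 10.5) was fitted with limma 3.58.1 in R 4.3.3 (trended eBayes, 5 group means, 6 contrasts), with p-values adjusted over the 30023 probe sets above their array's median on at least 2 arrays. The steps were tested on simulated data. Genes were named by the platform annotation where a probe set has 1 symbol. The arrays' number limits the precision.

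The members and lists were chosen with earlier results of these data known. Per-array values are given for Ncl, Npm1, Fbl, Polr1a, the largest and smallest difference of each role, genes called against most others, and genes with opposed probe sets; those of Ftsj3, Nolc1, Bop1 and of genes outside the 37 were chosen after their values were seen. Same-numbered arrays did not deviate together (correlations of -0.013 to 0.074 for the numbers in the titles), and the numbers were not used as pairs in the main fit. So few arrays cannot show that they are unpaired. Alternatives were another scaling, constant, filter, probe set, prior, block, covariate or set of arrays.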

Additional observations from a re-analysis of the deposited data

Results flagged for a closer look

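In the 4 positive day 7 arrays, the highest or lowest array of each of the 37 genes was set against the others by the gap to its neighbour as a share of the whole range (Dixon's test at the 95% level). The limit was passed by 3 genes, and chance passes about 1 in 20. In Dkc1 the share was 0.841 for array 4, the lowest at 510.2 against 743 to 798. In Nhp2 it was 0.842 for array 3, the highest at 2691 against 2242 to 2307. In Heatr1, of the early small subunit complex, it was 0.857 for array 4.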

How the results depend on the processing

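For the 37 genes in the day 7 sort, 19 higher calls became 7 with the Gapdh ratio as a covariate, which also gave 2 lower calls, and 8 to 20 when 1 array was left out (8 without negative array 1). With each other setting they stayed between 13 and 21. In the interaction, 0 higher calls became 4 with quantile normalization, 3 with the Gapdh ratio (with 2 lower), 2 with probe sets without a suffix, 2 without positive day 7 arrays 3 and 4, 1 without arrays 1 and 2, 1 with only the groups compared and 0 to 1 leaving out 1 array. For positive day 7 cells against ESC, the 1 higher call became 0 with median centring, the mean over probe sets, probe sets without a suffix, a constant prior, the Gapdh ratio, either replicate block or without positive day 7 arrays 3 and 4, 3 without arrays 1 and 2, and 0 to 2 leaving out 1 array. The 12 lower calls became 7 with the mean over probe sets, 0 with the Gapdh ratio, 1 with the block by array description number and 3 to 12 leaving out 1 array. For negative day 7 cells the 1 higher call became 0 with median centring, the mean over probe sets, a constant prior or without any 1 array (0 to 0), and the 23 lower calls became 1 with the Gapdh ratio. For unsorted ESC the 6 lower calls became 1 with the mean over probe sets, 0 with a constant prior, 0 with the block by array description number and 0 to 8 leaving out 1 array.

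The median of the day 7 sort, 0.73, was 0.97 with median centring, 0.70 with a constant of 1/5, 0.62 with the mean over probe sets, 0.78 with probe sets without a suffix, 0.82 within hybridisation runs, 1.02 with the Gapdh ratio, 0.78 with the block by array description number, 0.81 without positive day 7 arrays 3 and 4, and 0.65 to 0.82 leaving out 1 array. That of positive day 7 cells against ESC, -0.35, was -0.79 with median centring, -0.38 with the mean over probe sets, -0.74 with probe sets without a suffix, -0.54 with the block by array description number and -0.42 to -0.23 leaving out 1 array. That of negative cells, -0.98, was -1.58 with median centring and -1.37 with probe sets without a suffix.

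Of the genes not called in the day 7 sort, 6 changed sign under some setting. With the Gapdh ratio these were Nop58 (from 0.50 to -1.40) and Rrp9 (from 0.75 to -2.61), both then called lower, Dkc1 (-0.59) and Rrp1b (-0.58), with quantile normalization Dkc1 (-0.0032), Wdr43 (-0.14) and Rrp1b (-0.06), within runs Wdr43 (-0.01) and Gnl2 (-0.26), with the replicate block by title number Wdr43 (-0.0014) and Gnl2 (-0.15), and with the block by array description number Rrp9 (-0.02) and Rrp1b (-0.13). Without positive day 7 arrays 1 and 2 these were Nop58 (-0.06), Rrp9 (-0.35) and Rrp1b (-0.21), and without arrays 3 and 4 Gnl2 (-0.17). Leaving out 1 array gave -0.01 to 0.05 for Wdr43, -0.06 to 0.16 for Rrp1b and -0.11 to 0.25 for Gnl2. The cause was not tested in any of these cases. The block by array description number and the setting without positive day 7 arrays 1 and 2 were chosen after seeing the data. Correlations of same-numbered arrays lay between -0.017 and 0.074, and the block by title number gave 20 higher calls in the day 7 sort. Signal near the array median was left untested unless 2 arrays passed it.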
